A study of Mus musculus with 24 samples.

Results

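The genes described here are 9 dual-specificity phosphatases that act on MAP kinases: Dusp1, Dusp4, Dusp5, Dusp6, Dusp7, Dusp8, Dusp10, Dusp14 and Dusp16. They were taken by symbol from the authors' deposited table of the wild-type dexamethasone comparison, where 19 of 12588 genes carry a Dusp symbol, and from 45706 entries that name a gene in the count files. Their RNA was measured by stranded mRNA sequencing of mouse embryonic fibroblasts (MEFs), cells grown out of the trunk tissue of male C57BL/6 embryos at day 13.5 and kept for 7 days in culture. There were 2 genotypes, wild type and GR Zn/Zn, the latter homozygous for a glucocorticoid receptor (GR, the nuclear receptor for cortisol-like steroids) that carries a changed zinc-binding residue in its DNA-binding domain. The allele is in the germline, so every cell of a mutant culture carries it, whatever its type. Each genotype had 4 groups of 3 libraries. The vehicle group received ethanol for 16 h, and the Dex group received 1 uM dexamethasone, a synthetic glucocorticoid, in ethanol for 16 h. The LPS group had ethanol for 16 h with bacterial lipopolysaccharide at 100 ng/ul for 6 h, and the Dex+LPS group had both agents for those times. All 24 libraries are of male cells of the same strain. No label ties a library to a separate embryo or culture, so the p-values measure the spread between these libraries, which may be technical, and an effect of genotype cannot be told apart from one of the particular embryos used.

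MAP kinases are switched on when an upstream kinase phosphorylates both a threonine and a tyrosine in their activation loop, and the dual-specificity phosphatases switch them off by removing both phosphates. Many of these phosphatases are themselves transcribed in response to the kinases they restrain, which makes them feedback inhibitors. In fibroblasts and macrophages LPS acts through Toll-like receptor 4 to turn on the p38, JNK and ERK kinases, and glucocorticoids are known to raise Dusp1 as part of their anti-inflammatory action.

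The members fall into groups by where they act and on which kinase, and their positions are given here on GRCm38 (the assembly also called mm10) from GENCODE vM21. The inducible nuclear enzymes are Dusp1 (chromosome 17, 26505590 to 26562128, minus strand), which acts on p38, JNK and ERK, Dusp4 (chromosome 8, 34807297 to 34819894, plus strand), which acts on ERK and JNK, and Dusp5 (chromosome 19, 53529109 to 53542431, plus strand), which is selective for ERK. The cytoplasmic enzymes selective for ERK are Dusp6 (chromosome 10, 99263231 to 99267489, plus strand) and Dusp7 (chromosome 9, 106368632 to 106375724, plus strand). Enzymes that prefer JNK and p38 are Dusp8 (chromosome 7, 142079490 to 142095843, minus strand), Dusp10 (chromosome 1, 184013302 to 184075636, plus strand) and Dusp16 (chromosome 6, 134715468 to 134792625, minus strand). Dusp14 (chromosome 11, 84048041 to 84069261, minus strand) is an atypical, small member that lacks the kinase-binding domain of the others. All 9 are annotated as protein-coding.

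Promoter sequence was available from RefSeq (GRCm38.p6) for 8 of the 9 genes, all but Dusp4, and the 250 bases before each start were searched on both strands. The windows of Dusp1, Dusp8, Dusp10 and Dusp14 lie within the GENCODE spans of these genes given above. The search took in bases of GENCODE exons of the same gene. In the Dusp14 window the last 223 bases, which hold its GC box, begin with such an exon. The cAMP response element TGACGTCA, the site of CREB and ATF factors, was found in 2 of the 8, and in 1.55% of 32851 promoters of the same length. Its core TGACG, which the full element also contains, was in 4 of 8 (17.8% of all promoters). A serum response (CArG) box, the site of the serum response factor, was found in 1 of the 8, Dusp5, and in 1.47% of all promoters. The Dusp5 window held 2 of them side by side, and the share of all promoters with such a pair was not counted. The GC box GGGCGG was in 6 of 8 (32.7%). The windows of the 8 genes held no full GR element (AGAACA, 3 bases, TGTTCT; 0.00913% of all promoters), no GR core AGAACA (16.1%), no AP-1 site TGANTCA (6.75%), no kappaB site (3.9%) and no TATAAA (12.4%), which says only that these letters are not in these windows. The 3 promoters with a full cAMP response element or CArG boxes are printed because they belong to a member raised by Dex in wild type (Dusp1) and to 2 lowered by Dex under LPS (Dusp5 and Dusp8). They run 5′ to 3′ on the gene's strand, stop before any GENCODE exon of the same gene, and carry the element, its core (read as CGTCA on the other strand) and the CArG boxes in capitals.
Dusp1: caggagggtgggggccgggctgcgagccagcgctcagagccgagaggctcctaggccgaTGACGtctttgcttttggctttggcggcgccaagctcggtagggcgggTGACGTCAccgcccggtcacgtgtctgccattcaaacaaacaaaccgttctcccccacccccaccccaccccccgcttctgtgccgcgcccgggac
Dusp5: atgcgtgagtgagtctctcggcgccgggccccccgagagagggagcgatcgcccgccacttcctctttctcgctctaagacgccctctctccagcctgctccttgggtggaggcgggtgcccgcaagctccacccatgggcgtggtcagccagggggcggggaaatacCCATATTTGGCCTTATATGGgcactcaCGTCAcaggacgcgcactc
Dusp8: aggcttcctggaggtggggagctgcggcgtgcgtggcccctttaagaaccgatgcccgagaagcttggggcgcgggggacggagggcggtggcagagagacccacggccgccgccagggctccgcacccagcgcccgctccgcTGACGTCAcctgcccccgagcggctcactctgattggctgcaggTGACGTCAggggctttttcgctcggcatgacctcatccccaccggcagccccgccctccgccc
The Dusp1 stretch is chr17:26508520-26508722 on the minus strand, with the full element 143 to 136 bases before the RefSeq start. The Dusp5 stretch is chr19:53528895-53529108 on the plus strand, with the CArG boxes 82 to 73 and 72 to 63 bases before it. The Dusp8 stretch is chr7:142095285-142095534 on the minus strand, with full elements 107 to 100 and 63 to 56 bases before it. A match is a run of letters and not a measured binding site.

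The libraries held 18.9 to 25.5 M counted reads in 21 cases and 43.9 to 58.0 M in the other 3 (replicate 3 of wild type with Dex+LPS, replicate 1 of mutant vehicle and replicate 2 of mutant LPS), whose labels carry later library numbers. Within their groups, the median distance of a gene's log2 level from the mean of the other 2 libraries was 0.193 and 0.18 for replicates 1 and 3 of wild type with Dex+LPS, 0.177 for replicate 2 of mutant Dex+LPS, 0.116 for replicate 1 of mutant vehicle, and 0.039 to 0.108 in the other 20. An alternative below leaves out 5 libraries, these 4 and replicate 2 of mutant LPS, which is one of the deeper libraries and by its distance (0.071) lay within the range of the other 20. All 10 fibroblast markers examined, such as Col1a1, Pdgfra and Thy1, were expressed, with a summed level of 16400 to 27400 CPM (counts per 1000000 counted reads, scaled by TMM) in every library. The treatments acted in wild type on genes that served as controls: Fkbp5, a GR target, rose with Dex from 41.3 ± 1.4 to 307 ± 13.2 CPM (SD, n = 3), and Cxcl10, an LPS-induced chemokine, rose with LPS from 1.09 ± 0.161 to 328 ± 14.3 CPM (SD, n = 3).

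All 9 transcripts passed the filter on low counts and had 172 to 2713 reads per library. Over the 24 libraries the highest level of a member was between 1.4-fold (Dusp6) and 2.64-fold (Dusp4) its lowest. Per kb of exon, Dusp5 and Dusp6 had the highest levels in wild-type vehicle cells, at 13.8 ± 0.719 and 13.1 ± 0.748 CPM per kb (SD, n = 3), and their libraries overlapped. Dusp4 followed at 11.5 ± 0.159 CPM per kb, then Dusp14 at 10.6 ± 0.0811 and Dusp1 at 10.5 ± 0.143, which overlapped each other, and Dusp7 at 9.49 ± 0.342. Lower levels were measured for the enzymes that prefer JNK and p38: Dusp16 at 4.56 ± 0.198, Dusp10 at 4.03 ± 0.278 and Dusp8 at 2.83 ± 0.0678 CPM per kb. Other neighbours in this order did not overlap. Exon length here is the union over all transcripts of a gene, 7798 bases for Dusp16, and the order depends on it. In CPM, Dusp16 was at 35.6 ± 1.54 in these cells, beside 40.9 ± 2.34 for Dusp6 and 34.9 ± 0.475 for Dusp1 (SD, n = 3). Dusp8 at 13.8 ± 0.33 and Dusp10 at 12.3 ± 0.845 CPM were still lowest.

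**Figure D1:**
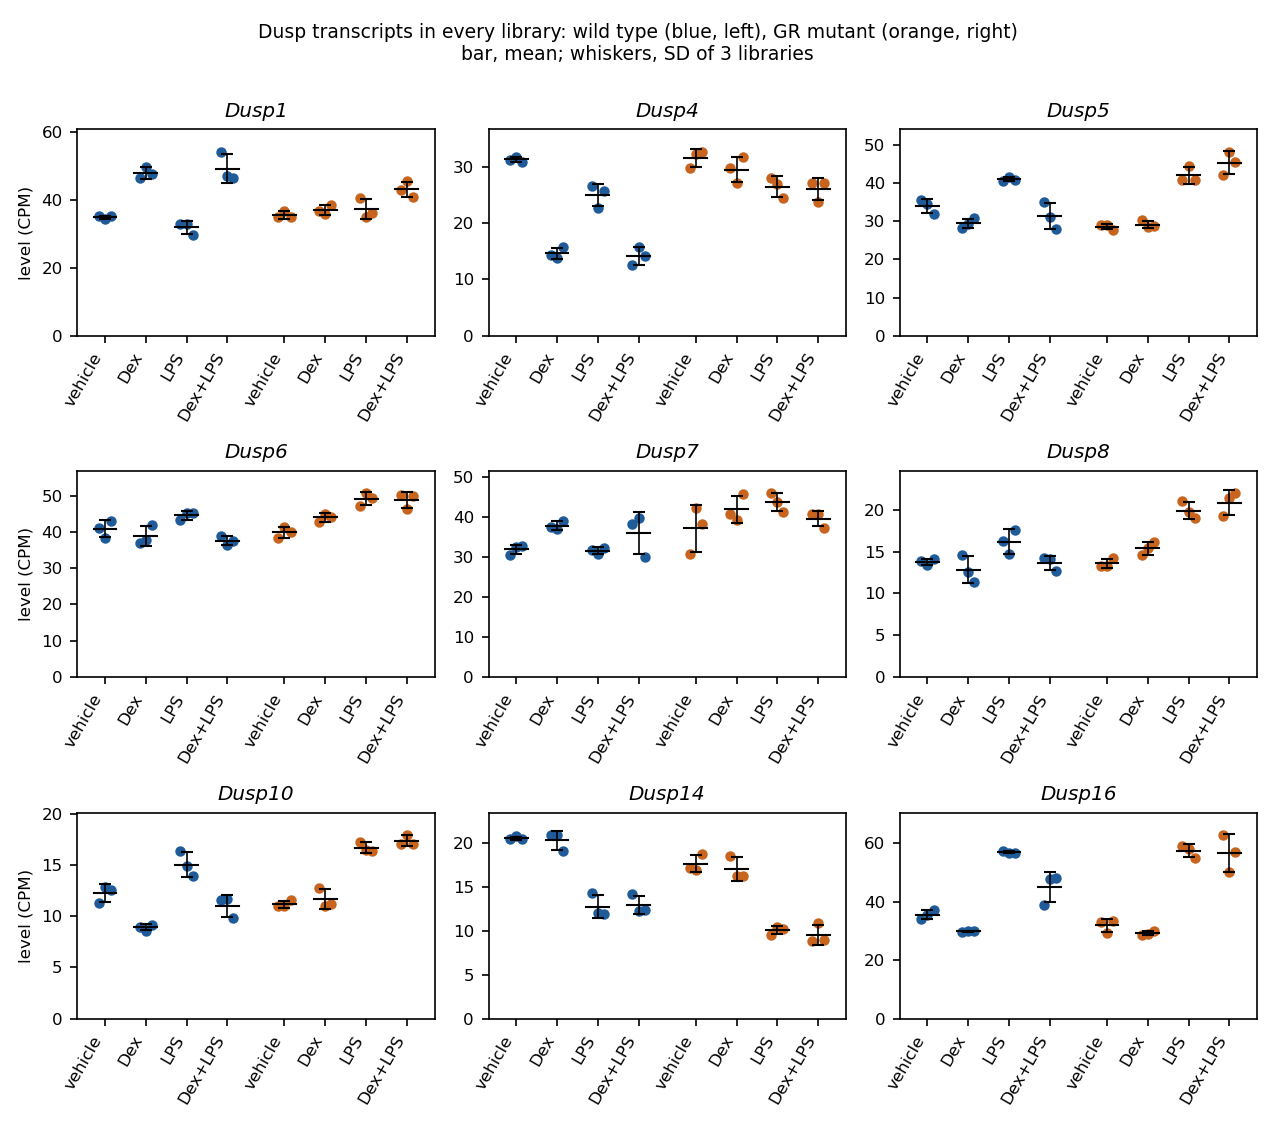
Level of each Dusp transcript (y axis, CPM, from 0) in every library of the 8 groups (x axis), wild type in blue on the left and GR mutant in orange on the right, with the mean as a bar and the SD of 3 libraries as whiskers. Dusp4 stands at 12.5 to 15.8 CPM in the 6 wild-type libraries with Dex and at 22.8 CPM or more in each of the other 18 libraries.

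Dex alone raised Dusp1 and lowered Dusp4, Dusp10 and Dusp16 in wild-type cells. Of the 9 members 1 was called higher and 3 lower by edgeR at an adjusted p below 0.05, beside 7.92% of the 15221 tested genes called higher and 5.24% called lower, and the median log2 fold change of the 9 was -0.10 beside 0.00 over all tested genes. In bulk RNA a smaller share of cells that express a gene and less RNA per cell cannot be told apart. Dusp4 was at 31.3, 31.9 and 31 CPM in vehicle and at 14.3, 13.8 and 15.8 CPM with Dex. The Dex libraries were close to each other and far below every vehicle library, a 2.14-fold fall (log2 -1.10 ± 0.09, SE, adjusted p = 3.12e-09). Dusp1 was at 35.1, 34.3 and 35.1 CPM in vehicle and at 46.4, 49.8 and 47.7 CPM with Dex. Its groups did not overlap, and the rise was 1.38-fold (log2 0.46 ± 0.07, SE, adjusted p = 2.52e-05). Dusp10, a phosphatase of JNK and p38, was at 11.3, 12.9 and 12.6 CPM in vehicle and at 9, 8.59 and 9.18 CPM with Dex. All Dex libraries were below all vehicle libraries, a 1.38-fold fall (log2 -0.46 ± 0.09, SE, adjusted p = 0.000422). Dusp16 had 34, 35.5 and 37.1 CPM in vehicle and 29.5, 29.9 and 29.9 CPM with Dex, again without overlap. Its 1.2-fold fall (log2 -0.26 ± 0.08, SE, adjusted p = 0.0338) lost its call without vehicle replicate 2 or 3 or without any single Dex library (adjusted p = 0.0847 to 0.148). Dusp5, the nuclear ERK phosphatase, had 35.6, 34.5 and 32.1 CPM in vehicle and 28.3, 29.4 and 30.8 CPM with Dex. Its groups did not overlap but it missed the call (log2 -0.21 ± 0.07, SE, adjusted p = 0.0568). It was called as lower in 6 of the 14 alternatives run, among them DESeq2 (adjusted p = 0.0428), RLE scaling (adjusted p = 0.0436) and the fit of the compared groups alone (adjusted p = 0.00122), and the authors' deposited table gives it an adjusted p of 0.0402. The cytoplasmic enzyme Dusp7, at 30.5 to 32.6 CPM in vehicle and 36.9 to 39 CPM with Dex, did not overlap either and was not called (log2 0.25 ± 0.10, SE, adjusted p = 0.127). Dusp7 was called as higher when only the compared groups were fitted (log2 0.24, adjusted p = 0.000129) and without the 3 deeper libraries, none of them in these groups (log2 0.245, adjusted p = 0.00909). Dusp6, Dusp8 and Dusp14 had overlapping groups and log2 differences of -0.07, -0.10 and -0.02 (adjusted p = 0.534 to 0.955). Summed nerve and glia markers were at 64 to 68.9 CPM in vehicle and 102 to 105 CPM with Dex, endothelial markers at 27.2 to 28.6 and 33 to 36.4 CPM, and muscle markers at 82.8 to 98.5 and 99.4 to 110 CPM. Liver markers were at 60.5 to 128 CPM in vehicle and 19.3 to 22.6 CPM with Dex, leukocyte markers at 88.2 to 91.9 and 74.8 to 83.9 CPM, and epithelial markers at 10.6 to 12.2 and 7.19 to 9.29 CPM. Of the 8 marker lists, fibroblasts included, 3 were thus higher and 3 lower without overlap, and 2 overlapped. Alb, a gene of the liver list, was at 46, 48.5 and 99.7 CPM in vehicle and at 16, 17.7 and 14.5 CPM with Dex. Its replicates differed widely within some groups, with 0, 29.4 and 152 CPM in wild type with Dex+LPS. Of the nerve, liver, endothelial and epithelial lists 4 of 5, 5 of 6, 4 of 6 and 2 of 6 genes passed the filter. Afp, Pecam1, Tie1, Epcam, Cdh1, Krt5, Krt8 and Krt14 were under 1 CPM in every library, and the part of these cells in the result was not tested.

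Under LPS, Dex lowered most of the members in wild-type cells and again raised Dusp1. The test called 1 of 9 higher and 6 of 9 lower, beside 10.5% of all tested genes higher and 10.6% lower, and the median log2 fold change of the 9 was -0.25 beside 0.01 over all tested genes. Dusp1 was at 32.8, 33 and 29.7 CPM with LPS and at 54.2, 47.1 and 46.3 CPM with Dex+LPS. The groups were well apart, with a 1.54-fold rise (log2 0.62 ± 0.07, SE, adjusted p = 2.41e-07). Dusp4 was at 26.7, 22.8 and 25.7 CPM with LPS and at 12.5, 15.8 and 14.2 CPM with Dex+LPS. It fell 1.77-fold without overlap (log2 -0.82 ± 0.09, SE, adjusted p = 2.03e-07). Dusp5 was at 40.7, 41.8 and 41 CPM with LPS and at 35, 31.2 and 28 CPM with Dex+LPS. Its 3 LPS libraries were close together and all above the Dex+LPS libraries, a 1.32-fold fall (log2 -0.40 ± 0.07, SE, adjusted p = 0.000179). Dusp10 was at 16.4, 14.9 and 13.9 CPM with LPS and at 11.6, 11.7 and 9.8 CPM with Dex+LPS. Its groups did not overlap and the fall was 1.38-fold (log2 -0.46 ± 0.08, SE, adjusted p = 0.000176). Dusp16 was at 57.3, 56.6 and 56.7 CPM with LPS and at 38.9, 47.8 and 48.1 CPM with Dex+LPS, the lowest of these being replicate 1. It fell 1.26-fold (log2 -0.34 ± 0.08, SE, adjusted p = 0.00245). Dusp6, the cytoplasmic ERK phosphatase, had 43.2, 45.2 and 45.2 CPM with LPS and 38.8, 36.3 and 37.6 CPM with Dex+LPS. It fell 1.18-fold without overlap (log2 -0.24 ± 0.06, SE, adjusted p = 0.00329). Dusp8 had 16.3, 14.7 and 17.6 CPM with LPS and 14.2, 14.1 and 12.7 CPM with Dex+LPS, a narrow gap between the groups. Its 1.19-fold fall (log2 -0.25 ± 0.09, SE, adjusted p = 0.0413) was the weakest of the calls and was lost in 8 of the alternatives run, among them the fit without LPS replicate 1 or 3 or Dex+LPS replicate 3 (adjusted p = 0.0836 to 0.158) and the fit with a replicate block (adjusted p = 0.0535). When only the 6 compared libraries were fitted, 4 members were called, and Dusp6 (adjusted p = 0.0861) and Dusp16 (adjusted p = 0.0673) lost their call beside Dusp8 (adjusted p = 0.214). Of all 14126 genes tested in that fit, 821 were called higher and 723 lower, in place of 1591 and 1607 of 15221. Dusp7 had 31.8, 30.7 and 32.2 CPM with LPS and 38.2, 39.8 and 29.9 CPM with Dex+LPS, so replicate 3 lay below the LPS libraries and the other 2 above them. It was not called (log2 0.18 ± 0.10, SE, adjusted p = 0.22), and without that library, which is among the deeper ones, it was higher with a log2 fold change of 0.31 (adjusted p = 0.0183). Dusp14 did not differ beyond its spread, at 11.9 to 14.3 CPM with LPS and 12.3 to 14.2 CPM with Dex+LPS. Of the 8 marker lists 4 were higher and 2 lower without overlap. Nerve and glia markers were at 58.3 to 59.1 CPM with LPS and 82.8 to 103 CPM with Dex+LPS, muscle markers at 88.3 to 97.3 and 101 to 137 CPM, and endothelial markers at 21.2 to 21.8 and 22.3 to 26.6 CPM. Leukocyte markers, also counted as higher, were at 83.8 to 86.2 and 86.2 to 97.4 CPM, a gap too small to show at this rounding. Cartilage markers were at 271 to 304 CPM with LPS and 183 to 252 CPM with Dex+LPS, and epithelial markers at 8.86 to 9.09 and 5.46 to 7.03 CPM. Their part in the result was not tested.

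**Figure D2:**
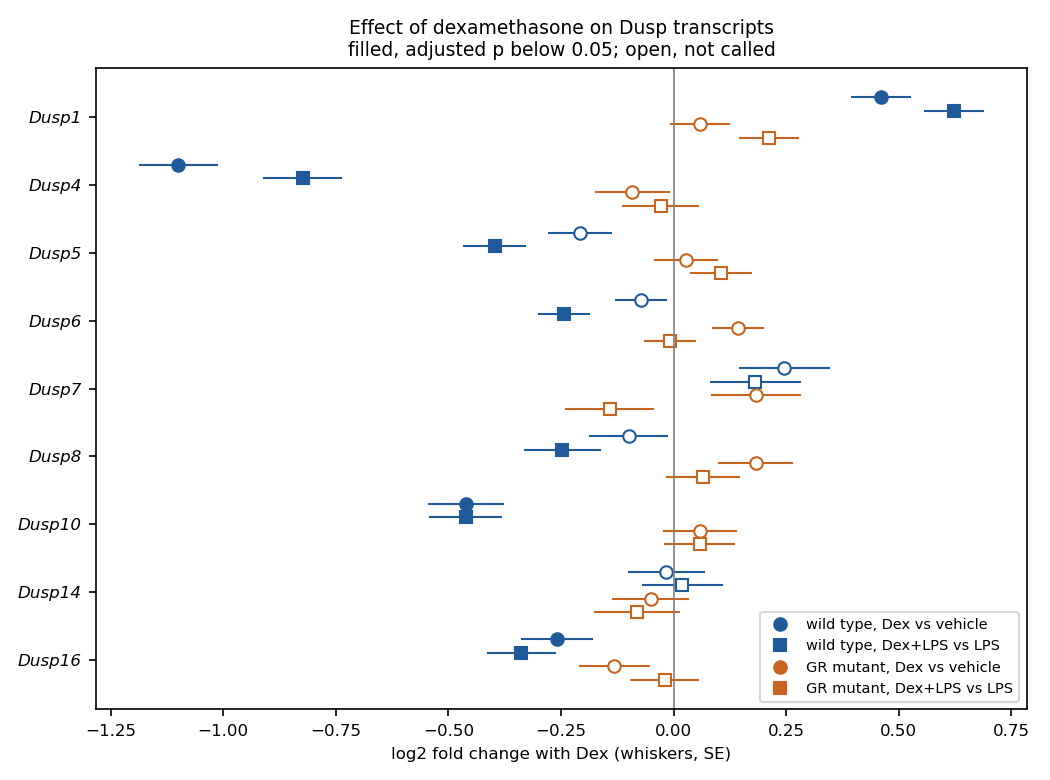
Log2 fold change with Dex (x axis) and its SE (whiskers) for each Dusp gene (y axis), in wild type (blue) and GR mutant (orange), without LPS (circles) and under LPS (squares), filled where the adjusted p was below 0.05. Wild-type symbols reach from -1.10 (Dusp4) to 0.62 (Dusp1), and the mutant ones lie between -0.14 and 0.21 with none filled.

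In the GR mutant no member was called with Dex. The edgeR count was 0 of 9 without LPS (0% of all tested genes were called higher and 0% lower), with 2 members at an unadjusted p below 0.05 and a smallest adjusted p of 0.675. Under LPS it was 0 of 9 (0.00657% of all genes higher and 0% lower), with 1 member at an unadjusted p below 0.05 and a smallest adjusted p of 0.496, and DESeq2 called 0 of 9 in both cases. Dusp4 was at 29.8, 32.3 and 32.8 CPM in vehicle and at 29.8, 27.2 and 31.8 CPM with Dex. These ranges overlapped (log2 -0.09 ± 0.08, SE, adjusted p = 0.774). Dusp1 was at 34.8, 36.8 and 35 CPM in vehicle and at 36.6, 35.8 and 38.5 CPM with Dex, also overlapping (log2 0.06 ± 0.07, SE, adjusted p = 0.817). Under LPS Dusp1 was at 40.5, 35 and 36.1 CPM without Dex and at 42.8, 45.4 and 40.9 CPM with it. The groups just missed each other, and the difference had the direction measured in wild type (log2 0.21 ± 0.07, SE, unadjusted p = 0.00455, adjusted p = 0.496 by edgeR). Dusp10 under LPS was at 17.3, 16.5 and 16.4 CPM without Dex and at 17.1, 18 and 17.1 CPM with it, and Dusp5 at 40.9, 44.7 and 40.8 and at 42.3, 48.4 and 45.6 CPM. Both overlapped, with log2 differences of 0.06 and 0.11. Without LPS, Dusp6 went from 38.3 to 41.3 CPM in vehicle to 42.8 to 45 CPM with Dex and Dusp8 from 13.3 to 14.2 CPM to 14.6 to 16.2 CPM, each without overlap and not called (log2 0.14 ± 0.06 and 0.18 ± 0.08, SE, adjusted p = 0.675 for both). An adjusted p below 0.05 is given by the authors' deposited table to 5 members for Dex in wild type, to 7 for Dex under LPS in wild type and to 0 in the mutant comparisons, and its log2 fold changes lie within 0.013 of the values given here.

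The difference between the genotypes in the Dex effect was tested directly, as the mutant effect minus the wild-type effect. Without LPS 2 of 9 members were called higher and 1 lower (2.6% of all tested genes higher and 4.4% lower): Dusp4 with a log2 difference of 1.01 ± 0.12 (SE, adjusted p = 3.87e-06), Dusp10 with 0.52 ± 0.12 (adjusted p = 0.00629) and Dusp1 with -0.40 ± 0.09 (adjusted p = 0.00849). Dusp16, called in wild type and not in the mutant, did not pass this test (log2 0.125 ± 0.11, SE, adjusted p = 0.694), so a genotype difference for it was not shown. Dusp5 was not called either (log2 0.235, adjusted p = 0.211), except without the 5 libraries named above (log2 0.26, adjusted p = 0.021). Under LPS 3 of 9 were called higher and 1 lower (5.36% and 5.03% of all genes). Dusp4 had a log2 difference of 0.795 ± 0.12 (SE, adjusted p = 6.3e-05), Dusp10 of 0.52 ± 0.11 (adjusted p = 0.00295), Dusp5 of 0.50 ± 0.10 (adjusted p = 0.00107) and Dusp1 of -0.41 ± 0.10 (adjusted p = 0.00483). Dusp1 narrowly lost this call when only the compared groups were fitted (adjusted p = 0.0544). Dusp6, Dusp16 and Dusp8 had positive differences of 0.24, 0.32 and 0.31 on the log2 scale that edgeR did not call (adjusted p = 0.0689, 0.0677 and 0.106). DESeq2 called Dusp6 (log2 0.25, adjusted p = 0.0406) and Dusp16 (log2 0.33, adjusted p = 0.0492). Dusp7 had a negative difference and was not called (log2 -0.32 ± 0.14, SE, adjusted p = 0.18 by edgeR). Over the 20 alternatives run, Dusp6 and Dusp16 were each called in 5, Dusp7 in 3 and Dusp8 in 2. For Dusp7 these included the fit without replicate 3 of wild type with Dex+LPS (log2 -0.45, adjusted p = 0.0195). Without those 5 libraries, 7 members were called, with Dusp6 (log2 0.37, adjusted p = 0.00239), Dusp7 (log2 -0.48, adjusted p = 0.000625) and Dusp16 (log2 0.34, adjusted p = 0.00344) added. Of all 15758 genes tested in that fit, 1675 were called higher and 1295 lower, in place of 816 and 765 of 15221. The summed leukocyte markers were at 175 to 218 CPM in the mutant libraries and 74.8 to 97.4 CPM in the wild-type ones, and their part in these differences was not tested.

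LPS alone raised the JNK and p38 phosphatases Dusp10 and Dusp16 and the ERK phosphatase Dusp5 in both genotypes, and lowered Dusp14 and Dusp4. In wild type 3 of 9 members were called higher and 2 lower (14% and 12.4% of all tested genes), and in the mutant 5 higher and 2 lower (19% and 17.7%). Dusp16 went from 34, 35.5 and 37.1 CPM in wild-type vehicle to 57.3, 56.6 and 56.7 CPM with LPS. The LPS libraries agreed closely and stood far above vehicle, a 1.6-fold rise (log2 0.68 ± 0.08, SE, adjusted p = 4.97e-07). In the mutant Dusp16 went from 33, 29.4 and 33.4 CPM to 59.1, 58 and 54.9 CPM, a 1.79-fold rise without overlap (log2 0.84 ± 0.08, SE, adjusted p = 8.68e-09). Dusp14 fell, from 20.5, 20.8 and 20.5 CPM to 14.3, 12.1 and 11.9 CPM in wild type. That was 1.61-fold (log2 -0.69 ± 0.09, SE, adjusted p = 2.18e-06), and all LPS libraries were below all vehicle libraries. In the mutant Dusp14 fell from 17.2, 17 and 18.8 CPM to 9.57, 10.5 and 10.2 CPM, 1.75-fold (log2 -0.81 ± 0.09, SE, adjusted p = 1.32e-07). Dusp10 rose 1.23-fold in wild type (log2 0.295 ± 0.08, SE, adjusted p = 0.00915) from 11.3 to 12.9 CPM in vehicle to 13.9 to 16.4 CPM with LPS, a call lost without vehicle replicate 1 (adjusted p = 0.0508) or LPS replicate 1 (adjusted p = 0.0636). In the mutant it rose 1.5-fold, from 11, 11 and 11.6 CPM to 17.3, 16.5 and 16.4 CPM (log2 0.58 ± 0.08, SE, adjusted p = 3.46e-06). Dusp5 rose 1.21-fold in wild type, from 32.1 to 35.6 CPM to 40.7 to 41.8 CPM (log2 0.27 ± 0.07, SE, adjusted p = 0.00517). Its rise in the mutant was 1.47-fold, from 29, 29.1 and 27.8 CPM to 40.9, 44.7 and 40.8 CPM (log2 0.56 ± 0.07, SE, adjusted p = 9.19e-07). Dusp4, lowered by Dex in wild type as well, fell 1.25-fold with LPS there (log2 -0.33 ± 0.09, SE, adjusted p = 0.00549) and 1.19-fold in the mutant (log2 -0.25 ± 0.08, SE, adjusted p = 0.0227), where the call was lost without vehicle replicate 3 (adjusted p = 0.0564) or LPS replicate 3 (adjusted p = 0.0813).

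Dusp6 and Dusp8 were called with LPS in the mutant. Dusp8 rose 1.47-fold there, from 13.3, 13.3 and 14.2 CPM to 21, 19.7 and 19 CPM (log2 0.55 ± 0.08, SE, adjusted p = 1.22e-05), and Dusp6 rose 1.23-fold, from 38.3, 41.3 and 40.1 CPM to 47.2, 50.7 and 49.4 CPM (log2 0.30 ± 0.06, SE, adjusted p = 0.000187). In wild type their groups did not overlap either, at 13.4 to 14.1 against 14.7 to 17.6 CPM for Dusp8 and 38.4 to 43.1 against 43.2 to 45.2 CPM for Dusp6, but neither was called (adjusted p = 0.0588 and 0.13). Dusp1, an immediate early gene in many cells, was not called with LPS in wild type (log2 -0.13 ± 0.07, SE, adjusted p = 0.182) or in the mutant (log2 0.07 ± 0.07, SE, adjusted p = 0.474) at this single time of 6 h. Dusp7 was at 31.8, 30.7 and 32.2 CPM with LPS in wild type (log2 -0.02 ± 0.10, SE, adjusted p = 0.947). In the mutant its vehicle libraries were spread over 30.8, 42.1 and 38.3 CPM, with replicate 1 lowest, and its LPS libraries stood at 45.9, 43.7 and 41.3 CPM (log2 0.245 ± 0.10, SE, adjusted p = 0.0558; without vehicle replicate 2, 0.33 and 0.013). When only the compared groups were fitted, 8 members were called in wild type, Dusp1 (adjusted p = 0.0407), Dusp6 (adjusted p = 0.0282) and Dusp8 (adjusted p = 0.0113) being the additional ones. Of all 14180 genes tested in that fit, 3577 were called higher and 3270 lower, in place of 2126 and 1894 of 15221. Marker lists also moved with LPS, 6 of 8 being lower without overlap in wild type and 3 of 8 in the mutant, and none higher. In wild type endothelial markers went from 27.2 to 28.6 CPM in vehicle to 21.2 to 21.8 CPM with LPS, leukocyte markers from 88.2 to 91.9 to 83.8 to 86.2 CPM, epithelial markers from 10.6 to 12.2 to 8.86 to 9.09 CPM and nerve and glia markers from 64 to 68.9 to 58.3 to 59.1 CPM. Wild-type liver markers went from 60.5 to 128 CPM to 0.652 to 25.9 CPM, and fibroblast markers from 18600 to 20100 to 17800 to 18500 CPM. Of the liver list, Alb was at 46, 48.5 and 99.7 CPM in wild-type vehicle and at 19.4, 22.3 and 0.0544 CPM with LPS. In the mutant leukocyte markers went from 205 to 211 CPM to 175 to 187 CPM, endothelial markers from 10.8 to 12.9 to 7.26 to 8.16 CPM and epithelial markers from 4.08 to 4.23 to 3.2 to 3.53 CPM. Their part in the LPS results was not tested.

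The genotype difference of the LPS effect was not called for any of the 9 members by edgeR (0 higher and 0 lower, beside 0.348% and 0.191% of all tested genes), with 4 at an unadjusted p below 0.05 and a smallest adjusted p of 0.32, and 0 by DESeq2. The log2 differences, mutant minus wild type, were positive for 8 of 9, with Dusp8 at 0.33 ± 0.12, Dusp10 at 0.29 ± 0.11 and Dusp5 at 0.29 ± 0.10 (SE), and negative for Dusp14 at -0.12 ± 0.13. The larger fold changes of Dusp8 and Dusp6 in the mutant are therefore not shown to differ from those in wild type.

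**Figure D3:**
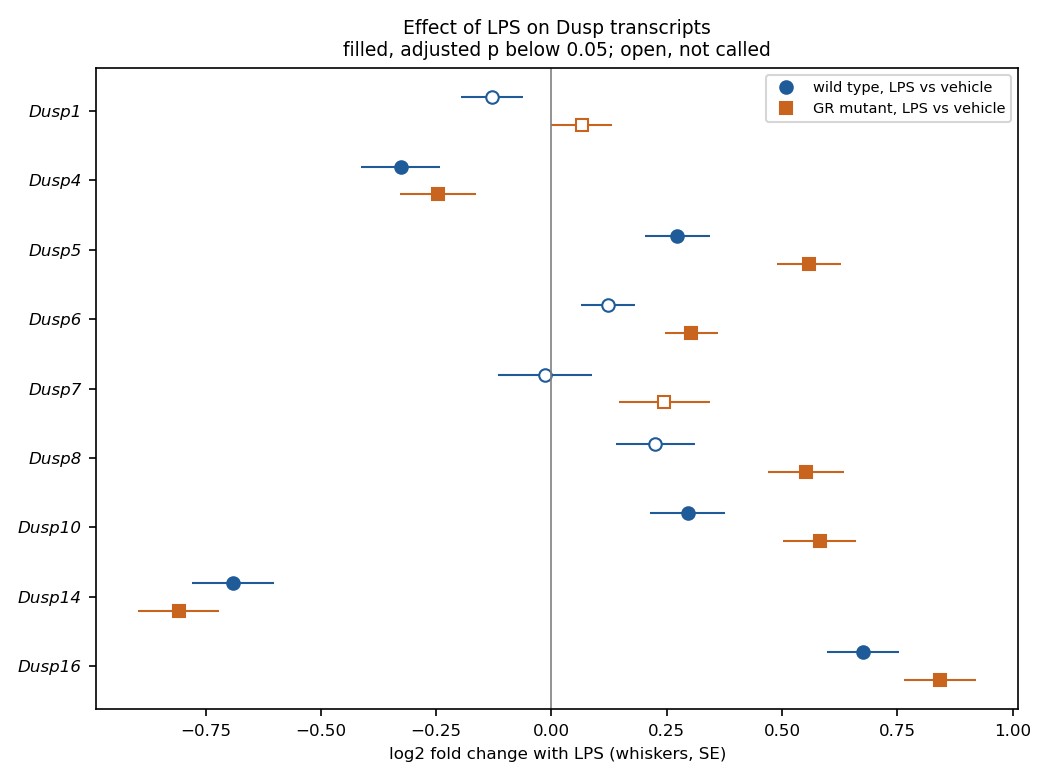
Log2 fold change with LPS (x axis) and its SE (whiskers) for each Dusp gene (y axis) in wild type (blue circles) and GR mutant (orange squares), filled where the adjusted p was below 0.05. Dusp16 lies farthest to the right at 0.68 and 0.84 and Dusp14 farthest to the left at -0.69 and -0.81.

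With both agents, the wild-type cells ended with Dusp1 and Dusp16 above vehicle and Dusp4 and Dusp14 below it. The test called 2 of 9 members higher and 2 lower against vehicle (16.4% and 13.2% of all tested genes). This comparison shares its vehicle libraries with those of each agent alone and its Dex+LPS libraries with the comparison under LPS. Dusp4 was 2.22-fold below vehicle (log2 -1.15 ± 0.09, SE, adjusted p = 4.38e-10) and Dusp14 1.59-fold below it (log2 -0.67 ± 0.09, SE, adjusted p = 2.39e-06). Dusp1 was 1.41-fold above vehicle (log2 0.49 ± 0.07, SE, adjusted p = 4.24e-06) and Dusp16 1.26-fold (log2 0.34 ± 0.08, SE, adjusted p = 0.00196). Dusp10, at 9.8 to 11.7 CPM with both agents and 11.3 to 12.9 CPM in vehicle, overlapped vehicle (adjusted p = 0.133), as did Dusp5 (adjusted p = 0.196), Dusp6 (0.119) and Dusp8 (0.876). Dusp7 was not called (log2 0.17, adjusted p = 0.227) and was higher without Dex+LPS replicate 3 (log2 0.29, adjusted p = 0.0182), and Dusp5 was lower without Dex+LPS replicate 1 (log2 -0.21, adjusted p = 0.0263).

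Mutant cells with both agents had 6 of 9 members above vehicle and 2 below (18.2% and 17.5% of all tested genes). Dusp16 was 1.77-fold higher (log2 0.82 ± 0.08, SE, adjusted p = 1.46e-08), at 62.9, 50.1 and 56.8 CPM with replicate 2 lowest. Dusp5 was 1.59-fold higher (log2 0.665 ± 0.07, SE), Dusp10 1.56-fold (log2 0.64 ± 0.08), Dusp8 1.53-fold (log2 0.62 ± 0.08), Dusp6 1.23-fold (log2 0.295 ± 0.06) and Dusp1 1.21-fold (log2 0.28 ± 0.07, adjusted p = 0.00217). Dusp14 was 1.85-fold lower (log2 -0.89 ± 0.09, SE, adjusted p = 5.11e-08). Dusp4 was 1.21-fold lower (log2 -0.275 ± 0.08, SE, adjusted p = 0.0132), a call lost without Dex+LPS replicate 2 (adjusted p = 0.0823), which is among the 4 libraries farthest from their groups. Dusp7 had overlapping groups and was not called (log2 0.10, adjusted p = 0.442). Between vehicle and both agents 2 of the 8 marker lists were higher and 2 lower without overlap in wild type, and 1 higher and 3 lower in the mutant, and their part in these results was not tested.

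Whether Dex acted differently with and without LPS was tested as an interaction. No member was called by edgeR in wild type (0 of 9, beside 0.315% of all tested genes higher and 1.25% lower), with 2 at an unadjusted p below 0.05 and a smallest adjusted p of 0.424, and none in the mutant (0 of 9, beside 0% and 0%), with 1 at an unadjusted p below 0.05 and a smallest adjusted p of 0.917. DESeq2 called 0 of 9 in each. The nearest in wild type were Dusp4, with a less negative Dex effect under LPS (log2 0.28 ± 0.12, SE, adjusted p = 0.424), and Dusp6 (log2 -0.17 ± 0.08, SE, adjusted p = 0.472). Without the 5 libraries named above Dusp4 was called (log2 0.43, adjusted p = 0.0336). In the mutant Dusp7 had the lowest value (log2 -0.325 ± 0.14, SE, adjusted p = 0.917).

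In vehicle, 1 of the 9 members was called between mutant and wild-type cells, a count not above the share of all genes. None was called higher and 1 lower, beside 8.69% of all tested genes higher and 10.1% lower, so the lower count was near that share. Dusp5 was at 35.6, 34.5 and 32.1 CPM in wild type and at 29, 29.1 and 27.8 CPM in the mutant. Its groups did not overlap, and the mutant level was 1.19-fold lower (log2 -0.25 ± 0.07, SE, adjusted p = 0.0138), a call lost without wild-type replicate 1 (adjusted p = 0.0879) or mutant replicate 3 (adjusted p = 0.0698). Dusp4 and Dusp1 were within 0.03 of each other on the log2 scale between the genotypes (0.01 ± 0.08 and 0.03 ± 0.07, SE, mutant minus wild type). Dusp14, at 20.5 to 20.8 CPM in wild type and 17 to 18.8 CPM in the mutant, did not overlap and was not called (log2 -0.22 ± 0.09, SE, adjusted p = 0.077), and neither was Dusp16 (log2 -0.15 ± 0.08, SE, adjusted p = 0.206), except without the 5 libraries named above (log2 -0.175, adjusted p = 0.0208). Dusp7 was not called with all libraries (log2 0.21 ± 0.10, SE, adjusted p = 0.171) and was higher in the mutant without its deeper vehicle replicate 1 (log2 0.34, adjusted p = 0.0137). Marker lists of other cell types differed between the cultures. In the vehicle libraries the 10 leukocyte and macrophage markers, all of which passed the filter, summed to 88.2 to 91.9 CPM in wild type and 205 to 211 CPM in the mutant. Over all treatments endothelial markers (4 of 6 passed the filter) summed to 21.2 to 36.4 and 7.26 to 12.9 CPM, muscle markers (4 of 6) to 82.8 to 137 and 30.2 to 42.2 CPM, and cartilage markers (4 of 5) to 183 to 304 and 53 to 84.5 CPM. Pecam1, Tie1, Myod1, Myog, Tnnt3 and Matn1 were under 1 CPM in every library, and the part of these cells in the genotype comparisons was not tested.

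The per-length levels of the 9 transcripts can be added up to see how the pool was made up. In wild type the sum was 80.3 ± 0.345 CPM per kb in vehicle, 75.3 ± 1.24 with Dex, 81.1 ± 1.45 with LPS and 74.3 ± 4.11 with Dex+LPS (SD, n = 3). In the mutant it was 77.3 ± 2.94, 79.8 ± 2.35, 88.8 ± 2.38 and 90.5 ± 0.724 CPM per kb in the same order. The sums of wild-type libraries with Dex, 74.2 to 76.7, lay below those in vehicle, 80.1 to 80.7, while the mutant ranges overlapped. Within this pool Dusp1 went from 13.1% ± 0.154 in wild-type vehicle to 19.2% ± 0.703 with Dex, and Dusp4 from 14.3% ± 0.25 to 7.11% ± 0.411 (SD, n = 3). The mutant shares with Dex were 14% ± 0.236 for Dusp1 and 13.5% ± 0.673 for Dusp4, near its vehicle shares of 13.9% ± 0.405 and 14.9% ± 0.276. LPS moved the Dusp14 share from 13.2% ± 0.141 to 8.07% ± 0.704 and the Dusp16 share from 5.68% ± 0.226 to 8.99% ± 0.0951 in wild type.

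**Figure D4:**
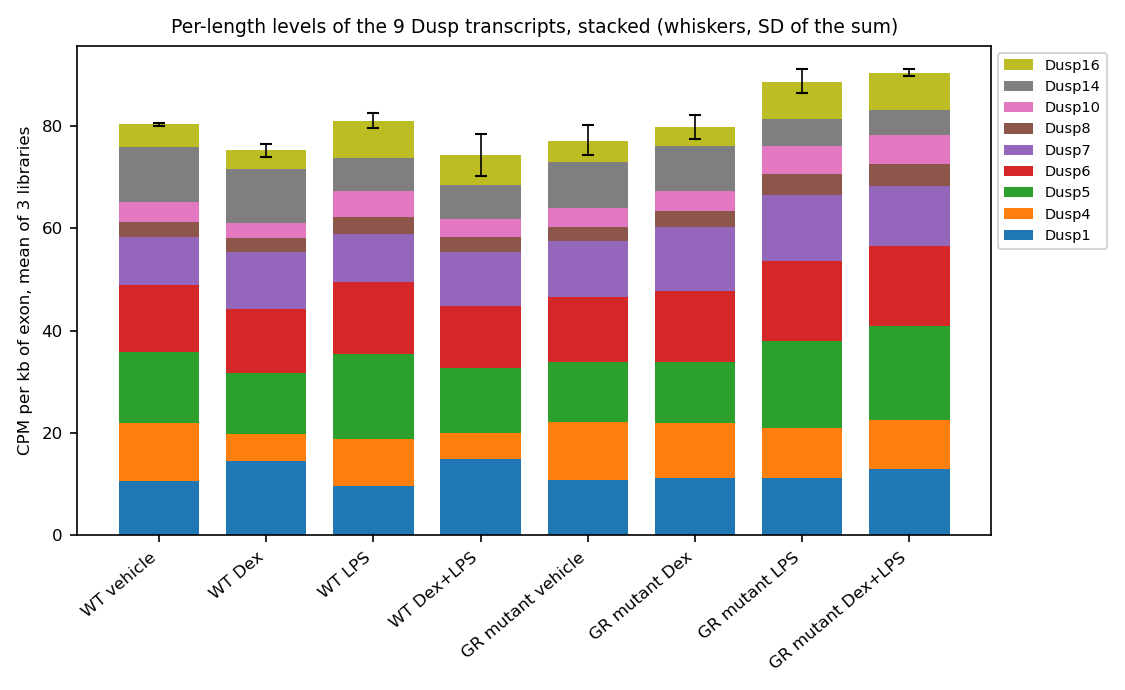
Stacked mean levels per kb of exon (y axis, CPM per kb, from 0) of the 9 Dusp transcripts in each group (x axis), with the SD of the summed level over 3 libraries as whiskers. The wild-type sums lie between 74.3 and 81.1 and those of the GR mutant between 77.3 and 90.5, and the Dusp4 layer is thinnest in both wild-type groups with Dex.

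Over the 8 group means of log2 level, some members had nearly the same profile and others opposite ones. These correlations describe 8 means that come from the same 24 libraries and carry no test. Dusp6 and Dusp8 had r = 0.957, Dusp8 and Dusp10 r = 0.932, Dusp5 and Dusp10 r = 0.928 and Dusp5 and Dusp16 r = 0.918. Dusp14 ran opposite to Dusp16 (r = -0.899), and Dusp1 opposite to Dusp4 (r = -0.831). The genes whose 8 group means were most like those of each member, among 12783 compared, were Sfrp4 for Dusp4 (r = 0.995), Apip for Dusp1 (r = 0.98), Aoc2 for Dusp5 (r = 0.991), Zc3h7b for Dusp6 (r = 0.982) and Rps26-ps1 for Dusp7 (r = 0.976). They were Inka1 for Dusp8 (r = 0.989), Spty2d1 for Dusp10 (r = 0.992), Camk2g for Dusp14 (r = 0.997) and Cnbp for Dusp16 (r = 0.996). The next most alike were Rpgr and Cfap43 for Dusp4, Scly and Pcx for Dusp1 and Pop1 and Denr for Dusp16.

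Other genes of the MAP kinase pathway were taken from lists and are given by their counts. Sprouty and Spred genes, which encode inhibitors of receptor signalling to ERK and are, like several Dusp genes, feedback targets of ERK, moved with Dex in wild type: 0 of 6 tested were higher and 5 lower (7.92% and 5.24% of all tested genes), with a median log2 fold change of -0.39 beside 0.00 over all genes. Under LPS 0 were higher and 4 lower (10.5% and 10.6% of all tested genes, median -0.34 beside 0.01). With Dex, Spry2 fell from 37.8 ± 2.67 to 26.7 ± 0.111 CPM (SD, n = 3), a log2 change of -0.50 (adjusted p = 5.19e-05), and Spry1 from 43.6 ± 2.17 to 30.7 ± 1.08 CPM (log2 -0.51, adjusted p = 0.000447). Of 12 transcripts known to follow ERK activity, 2 were higher and 6 lower with Dex (median -0.27) and 2 higher and 8 lower under LPS (median -0.43), beside the same shares of all genes. Egr3, an immediate early transcription factor, fell from 2.28 ± 0.203 to 0.838 ± 0.256 CPM when Dex was given (SD, n = 3, adjusted p = 7.21e-05), and Phlda1 fell from 28.1 ± 1.05 to 15.2 ± 0.116 CPM (adjusted p = 0.000359). Fos went the other way under LPS, from 6.75 ± 0.654 to 10.6 ± 1.28 CPM (log2 0.64, adjusted p = 2.97e-05). Without LPS it was at 10.1 ± 0.511 CPM in vehicle and 13.9 ± 0.26 CPM with Dex. The mutant levels of Fos were near these without LPS, 10.2 ± 0.922 and 13.5 ± 0.46 CPM, and were not called. Under LPS they were 6.75 ± 0.605 and 8.2 ± 0.435 CPM, also not called. In the mutant 0 of 6 and 0 of 12 genes of these lists were called with Dex, with or without LPS, where at most 0.00657% of all tested genes were called in either direction. The genotype difference of the Dex effect was called higher in the mutant for 3 of 6 Sprouty and Spred genes and 7 of 12 ERK transcripts, and lower for 0 and 1, beside 2.6% of all tested genes called higher and 4.4% lower.

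The kinases themselves were also counted with Dex in wild type, where 7.92% of all tested genes were called higher and 5.24% lower. Of 11 MAP kinases tested 3 were higher and 1 lower. Among them Mapk14, which encodes p38 alpha, rose from 101 ± 1.13 to 116 ± 2.13 CPM, Mapk4 rose from 0.856 ± 0.122 to 1.72 ± 0.346 CPM, and Mapk6 fell from 255 ± 3.61 to 201 ± 1.79 CPM (SD, n = 3). Of 23 upstream kinases 2 were higher and 3 lower with Dex, and of 10 kinases downstream of MAP kinases 1 was higher and 0 lower. The counts of higher upstream and higher downstream kinases were near the share of all genes. Those of higher MAP kinases (3 of 11) and of lower upstream kinases (3 of 23) were above the shares of all genes. The upstream kinases were led by Map3k6 (log2 1.09 ± 0.11, SE, adjusted p = 2.73e-07). Map3k8, the kinase that links Toll-like receptors to ERK, rose with LPS in both genotypes, from 3 ± 0.0536 to 8.33 ± 1.32 CPM in wild type and from 2.45 ± 0.535 to 9.6 ± 0.17 CPM in the mutant (SD, n = 3). With LPS in wild type 2 of the 10 downstream kinases were higher and 1 lower (14% and 12.4% of all tested genes), among them Mapkapk2, the p38 substrate kinase (log2 0.47 ± 0.05, SE, adjusted p = 2.86e-08). Among 11 other Dusp genes tested, Dusp9 was the single call with Dex in wild type, lower at 16.4 ± 0.613 than at 21.4 ± 0.331 CPM (SD, n = 3, log2 -0.38, adjusted p = 0.00581), and under LPS (log2 -0.45, adjusted p = 0.000798). Dusp2, known from activated leukocytes, rose with LPS in the mutant from 0.199 ± 0.0839 to 1.02 ± 0.0999 CPM (SD, n = 3, adjusted p = 1.72e-05 by edgeR). The vehicle level was near the floor, since a count of 0 allows up to 0.052 to 0.159 CPM, depending on the library. In the same comparison the summed leukocyte markers went down, from 205 to 211 CPM to 175 to 187 CPM. They were higher in the mutant than in wild type, and their part in this result was not tested. Of 6 other phosphatases of MAP kinases, Ppm1d was the single call with Dex in wild type (log2 0.40 ± 0.07, SE, adjusted p = 0.000311). With LPS in wild-type cells 6 of 12 ERK transcripts rose and 1 fell, and in mutant cells 9 rose and 1 fell, led in both by Ier3 (log2 2.13 and 2.67). Over all tested genes 14% rose and 12.4% fell with LPS in wild-type cells, and 19% rose and 17.7% fell in mutant cells. Sprouty and Spred genes rose with LPS in 3 of 6 cases and fell in 1, in each genotype.

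**Figure D5:**
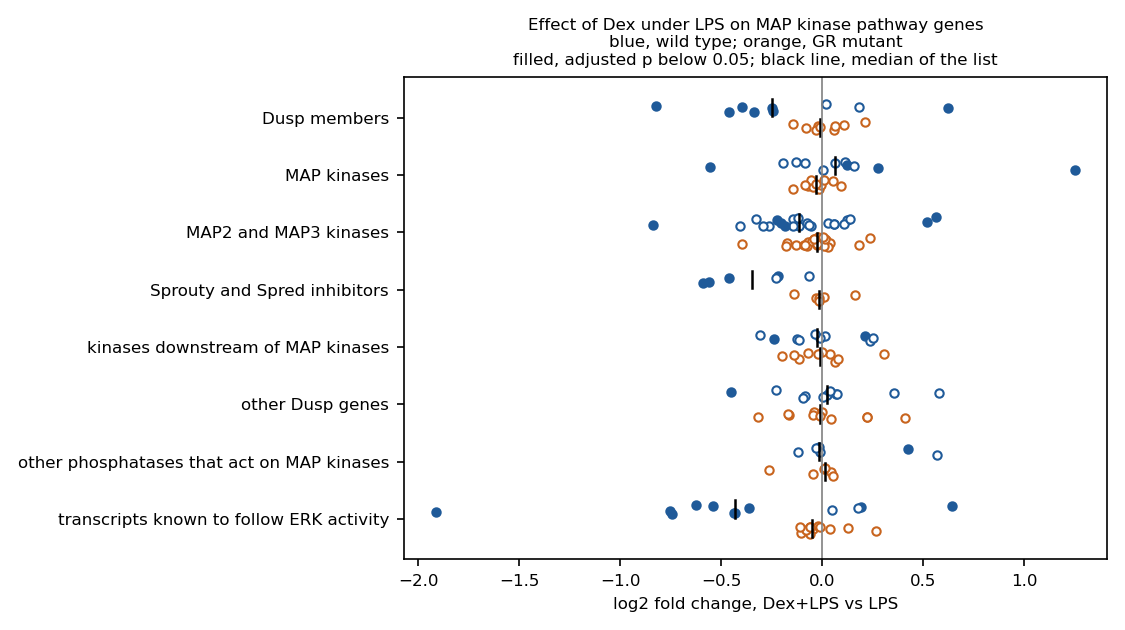
Log2 fold change of Dex under LPS (x axis) for each gene of the 9 Dusp members and of 7 pathway lists (y axis), wild type in blue and GR mutant in orange, filled where the adjusted p was below 0.05, with the median of each list as a black line. In wild type the medians of the Dusp members (-0.25), the Sprouty and Spred genes (-0.34) and the ERK transcripts (-0.43) lie left of 0, and no mutant point is filled.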

How the data were processed

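Gene counts had been made by the authors with STAR (2.4.2 and 2.4.2a, per the submitters' processing notes, which also name FastQC, DESeq, DESeq2 and mm10). The deposited counts of the reverse strand were used, since the library kit is stranded (TruSeq, per the labels' protocols). The authors' deposited tables give log2 fold changes and adjusted p-values for 12588 genes, quoted only where named, and 96 further columns of values per sample there were not used. Rows that name no gene, 12.417 to 15.697% of reads, were left out. edgeR 4.0.16 (R 4.3.3) was run with TMM scaling, its default filter (15221 genes kept), robust quasi-likelihood fitting of all 24 libraries with 1 coefficient per group, and Benjamini-Hochberg adjustment over all genes tested, two-sided, called below 0.05. The fit was tested on simulated data. Levels are CPM, or CPM per kb of GENCODE vM21 exon. There were 14 comparisons.

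Alternatives were RLE scaling, no filter, unstranded counts, DESeq2 1.42.0, a replicate block, the compared groups alone, and libraries left out. The 9 members and the gene lists were chosen with earlier results of these data known. All members are named, and of each list at most the 4 called genes with the largest change per comparison. Of the 3 most alike genes per member the first is named, and all 3 for Dusp1, Dusp4 and Dusp16. Depth limits precision through 172 to 2713 reads per member and library. Replicate numbers were not taken as pairs, and the labels do not say whether equal numbers share an embryo or a day. Some genes of the lists are not reported here by name.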

Additional observations from a re-analysis of the deposited data

Results flagged for a closer look

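These results were singled out because the effect of Dex differed between the genotypes by a test of the difference itself (mutant effect minus wild-type effect, edgeR, 3 libraries per group, adjusted over all genes). Without LPS the log2 difference was 1.009 for Dusp4 (adjusted p = 3.87e-06), 0.519 for Dusp10 (adjusted p = 0.00629) and -0.401 for Dusp1 (adjusted p = 0.00849). Dusp4 and Dusp10 were lower with Dex in 3 of 3 wild-type libraries than in every wild-type vehicle library, and Dusp1 was higher in 3 of 3, while the mutant groups overlapped for these genes. Under LPS it was 0.795 for Dusp4 (adjusted p = 6.3e-05), 0.503 for Dusp5 (adjusted p = 0.00107), 0.52 for Dusp10 (adjusted p = 0.00295) and -0.411 for Dusp1 (adjusted p = 0.00483). Here too the wild-type groups did not overlap for any of the 4, and the mutant groups overlapped for Dusp4, Dusp5 and Dusp10 but not for Dusp1. With and without LPS, these overlaps come from the libraries whose test picked the genes, so they describe the calls and add no separate support. The share of all genes with such groups was not counted.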

How the results depend on the processing

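The replicate numbers of the libraries are shared between groups, but the correlation of deviations from the group means was -0.338 to 0.348 over 21 pairs and above 0.1 in 5, so the numbers were not taken as pairs. With a replicate block 6 members in place of 7 were called for Dex under LPS in wild type, Dusp8 being the loss (adjusted p = 0.0535). Over all tested genes that fit called 1540 higher and 1571 lower there. No other call of a member changed with the block. With unstranded counts no call of a member changed. Fitting only the compared groups called 4 members in place of 7 for Dex under LPS in wild type and 8 in place of 5 for LPS in wild type. The calls over all tested genes moved the same way. For Dex under LPS they went from 1591 higher and 1607 lower of 15221 to 821 and 723 of 14126. For LPS they went from 2126 and 1894 to 3577 and 3270 of 14180. Leaving out together 5 libraries, the 4 farthest from their groups and the deeper replicate 2 of mutant LPS, called 1 in place of 0 for the wild-type interaction, 7 in place of 4 for the genotype difference of the Dex effect under LPS, and 3 in place of 1 for genotype in vehicle. Over all tested genes the wild-type interaction went from 48 called higher and 190 lower to 224 and 557. The genotype difference under LPS went from 816 and 765 to 1675 and 1295. Genotype in vehicle went from 1322 and 1539 to 2248 and 2372. Leaving out the 3 deeper libraries called 2 in place of 1 for genotype in vehicle, and leaving out single libraries called 0 to 2 there. Over all tested genes the former called 1359 higher and 1481 lower, and the latter 1037 to 1258 higher and 1184 to 1343 lower. The fits of the compared groups and those with libraries left out hold fewer libraries by construction. The cause of the changed counts was not tested. No called member reversed its direction under any alternative run. With 3 libraries per group, differences such as that of Dusp16 with Dex, about 1.2-fold, sit at the edge of what passes the threshold.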
